A study of Mus musculus with 12 samples.

Results

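The comparison described here set sons that ate an obesogenic diet after control-fed mothers (CO) against sons that ate control chow after obesogenic-fed mothers (OC), the pair of groups whose diet changed at weaning. It was defined by the diet labels, with earlier results of these data known. It took in 6 of the 12 liver libraries of the series, 3 per group, with all 386 listed miRNA rows. All animals were wild type male C57BL/6 mice, killed fasted at 84 days (12 weeks) of age. Mothers kept their diet from before mating until the sons were weaned on day 21. The control chow held 7% simple carbohydrates and 3% lipids, and the obesogenic chow 10% and 20%, with sweetened condensed milk offered beside it. The other groups, used here for levels and in the estimate of the spread, were CC (control diet for mother and son) and OO (obesogenic diet for both), with 3 libraries each. CO and OC differed in the mother's diet and in the son's diet at once, so within this comparison a difference from the one and a difference from the other cannot be told apart. The prefix and the last letter of the sample titles, whose meaning the labels do not give, also separated CO from OC fully and cannot be told apart from diet either. Mothers and litters are not named. One number recurs in 2 titles, those of OO replicate 3 and OC replicate 2, and its meaning is likewise not given. The fit treated all 12 libraries as independent, and p-values measure only the spread between these libraries.

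MicroRNAs are short RNAs cut from hairpin precursors that lower the output of messenger RNAs they pair with, mainly through a short stretch near their 5′ end called the seed. Liver miRNA is dominated by a few species made in hepatocytes, and several of the less abundant ones have been studied as regulators of cholesterol synthesis, fatty acid oxidation and insulin signalling. The clustered miR-183, miR-96 and miR-182, called the miR-183 cluster here and best known from sensory organs, are also made in liver, where the sterol-responsive factor SREBP-2 activates them and where their targets include Fbxw7 and Insig2, which restrain SREBP.

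The mature sequences below, from RefSeq (GRCm38.p6), belong to miRNAs near the head of the comparison. They are written 5′ to 3′ with the seed, bases 2 to 8, in capitals. The first group is the miR-183 cluster, shown because all 3 members were lower in CO and because their seeds are close.
miR-182-5p: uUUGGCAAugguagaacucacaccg
miR-96-5p: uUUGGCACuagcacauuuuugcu
miR-183-5p: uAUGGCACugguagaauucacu
The seeds of miR-182-5p and miR-96-5p share bases 2 to 7. The 3 hairpins lie on the minus strand of chromosome 6, at chr6:30165918-30165992 (Mir182), chr6:30169446-30169551 (Mir96) and chr6:30169668-30169737 (Mir183), outside other annotated genes of GENCODE vM21.

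A second group holds single miRNAs at the head of the comparison, whose seeds differ from one another and from those of the cluster.
miR-3084-3p: uUCUGCCAgucuccuucagac
miR-1933-3p: cCAGGACCaucagugugacuau
miR-31-5p: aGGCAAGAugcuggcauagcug
miR-137-3p: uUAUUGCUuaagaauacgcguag
miR-3084-3p is made from 2 hairpins on the minus strand of chromosome 19, in introns of Cbwd1 (chr19:24942235-24942303) and Eif3a (chr19:60774329-60774397), and its reads cannot be assigned to either. The miR-1933 hairpin lies in an intron of Ugp2 (chr11:21344588-21344675, minus strand), the gene of UDP-glucose pyrophosphorylase, which makes the sugar donor for glycogen. Mir31 lies in a lincRNA exon at chr4:88910557-88910662 (minus strand), and Mir137 in an exon of the non-coding transcript Gm26871 at chr3:118433857-118433929 (plus strand). Shown last is a pair with 1 shared seed, shown because both members were lower in CO by a similar amount.
miR-26a-5p: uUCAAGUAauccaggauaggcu
miR-26b-5p: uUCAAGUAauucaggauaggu
Of the 25 miRNAs with the smallest p-values, 19 had a sequence in the table. Those without one include miR-5099.

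Levels are CPM, reads scaled to a fixed total per library. Depth ran from 5.45 to 22.2 M reads per library (M for mega). CO libraries were shallower, at 13.1, 15.0 and 5.45 M reads, than OC libraries, at 22.2, 17.2 and 16.9 M reads. The ranges did not overlap (11.2 ± 5.05 against 18.8 ± 2.97 M reads, SD, n = 3 each, exact two-sided permutation p = 0.1, the smallest that 3 against 3 allows). CO replicate 3 stood apart: the median deviation of its miRNAs from their average was -0.20 on the log2 scale, and a fit with library quality weights gave it a weight of 0.161, against 0.392 to 2.15 for the others. Without it, 20 of the 59 log2 changes described were over 1.5 times smaller or turned sign, against 2 to 10 without any 1 other library of CO or OC. Values without it stand beside the changes it moved so far. As a check of the tissue label, hepatocyte-enriched miRNAs held a summed share of 33.5% to 40.4% in the 6 libraries. Most of that share was miR-192-5p and miR-148a-3p, at means of 24.4% and 8.30% over all libraries of the series.

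Livers of CO sons held less miR-5099, miR-182-5p and miR-3084-3p than those of OC sons, each by about a log2 unit, and no miRNA was higher past the test. The rest of the miR-183 cluster lay in the same direction with changes as large, but missed the threshold. On the other side, miR-1933-3p came closest to being called higher in CO. The most abundant liver miRNAs, among them miR-192-5p, miR-148a-3p and miR-122-5p, stayed short of the threshold. The test was limma on log2(CPM + 1) over all 12 libraries, two-sided, with Benjamini-Hochberg adjustment, and a miRNA passed at an adjusted p under 0.05. It called 3 of 386 rows (0.777%), all lower in CO.

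Many more rows leaned towards lower levels in CO than towards higher ones at the deposited scaling, 254 (65.8%) against 132 (34.2%). An unadjusted limma p under 0.05 was reached by 48 rows (12.4%), where chance alone would give 19.3, with 42 lower (10.9%) and 6 higher (1.55%). In 70 rows (18.1%) the CO and OC libraries did not overlap, 58 lower (15.0%) and 12 higher (3.11%). This lean depended on scaling: at an unadjusted p under 0.05, trimmed-mean (TMM) factors gave 20 rows lower (5.18%) and 24 higher (6.22%), and median-of-ratios factors 25 lower (6.48%) and 17 higher (4.4%). Of all rows, 175 (45.3%) were lower and 211 (54.7%) higher with TMM, and 199 (51.6%) lower and 187 (48.4%) higher with median-of-ratios factors. Each of these scalings called the same 3 miRNAs lower (0.777%) and 1 higher (0.259%), miR-1933-3p. The median log2 change of all rows was -0.10 at the deposited scaling, 0.03 with TMM and -0.01 with median-of-ratios factors. Without CO replicate 3 it was -0.02, with 23 lower and 17 higher at an unadjusted p under 0.05. With log2 depth in the model the median was -0.01, and 24 rows had an unadjusted limma p under 0.05, 17 lower and 7 higher. Depth separated CO from OC, so its part in the lean cannot be told apart from diet. For single miRNAs below, a change is therefore read against a shift of -0.10. The 95% interval of the change lay within 1 log2 unit of 0 for 314 of the 386 rows. Among rows with a mean of at least 10 CPM this held for 218 of 261. For scarcer miRNAs the log2 of CPM + 1 understates changes in CPM.

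**Figure D1:**
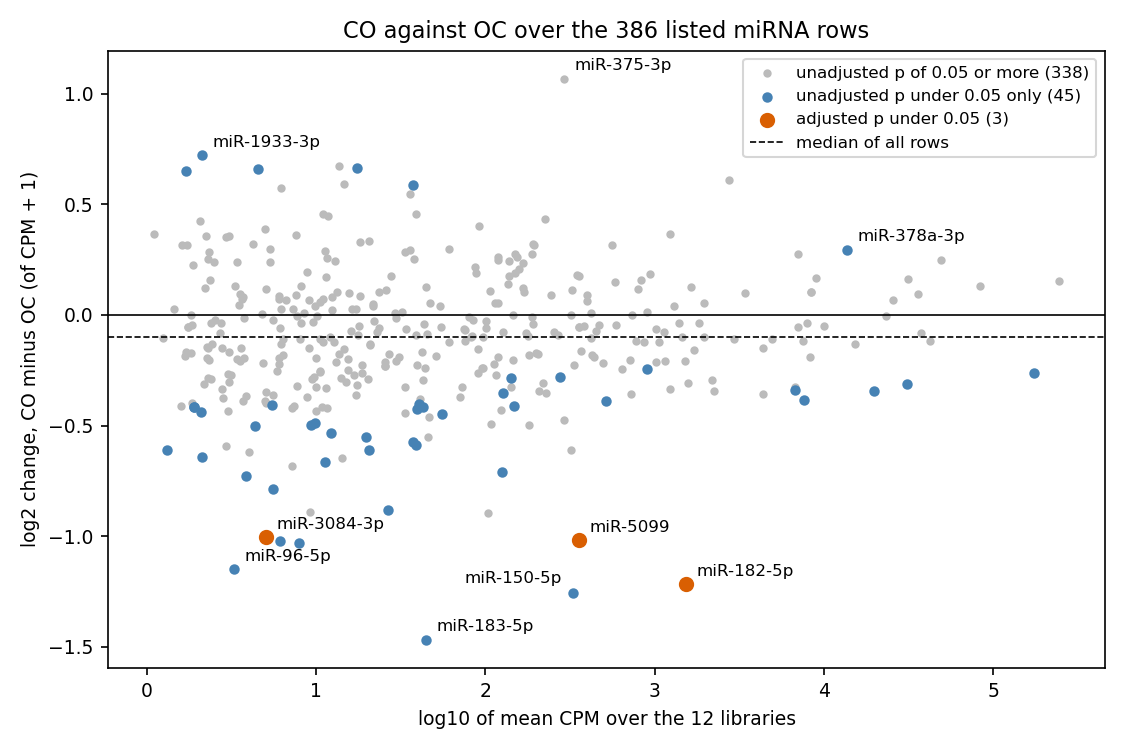
Log2 change between CO and OC (vertical axis, of CPM + 1) against log10 of the mean CPM over the 12 libraries (horizontal axis), 1 point per miRNA row. The 3 called miRNAs (orange) and 45 others with an unadjusted limma p under 0.05 (blue) lie at all levels, mostly below the dashed median of all rows at -0.10.

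miR-5099 gave the smallest p. Its level was 188, 202 and 264 CPM in the CO libraries and 478, 448 and 391 CPM in the OC libraries. Every CO library was below every OC library, and the OC mean was 2.02 times the CO mean (439 ± 44.0 against 218 ± 40.3 CPM, SD, n = 3 each). On the log2 scale it fell by 1.02 in CO (SE 0.147, 95% interval -1.34 to -0.70, limma adjusted p = 0.00783). Levels in the groups without a change of diet were 543 ± 58.1 CPM in CC and 227 ± 14.9 CPM in OO, so the libraries of obesogenic-fed sons lay below all libraries of control-fed sons, whatever the mother had eaten. That separation by the sons' diet was known for miR-31-5p, miR-5099 and miR-182-5p before this comparison was drawn up, from the same libraries. Beside the depth gap, the call held with log2 depth in the model (-1.16, limma adjusted p = 0.0110) and without CO replicate 3 (-1.16, limma adjusted p = 0.00111). It was lost narrowly without CO replicate 1 (limma adjusted p = 0.0522) or OC replicate 1 (0.0585), and when only the 6 libraries of both groups were fitted (0.235).

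The miR-183 cluster was the one list, of 18 compared, in which all members were lower in CO with no overlap. A list of 3 members meets such a rule more easily than a longer one. Of all 386 rows, 58 (15.0%) were lower without overlap. The separation of miR-182-5p by the sons' diet was known from these libraries when the lists were chosen. The cluster's 3 members, 1 of them called, had a median log2 change of -1.22, against -0.10 over all rows. miR-182-5p, the most abundant, was measured at 809, 1330 and 898 CPM in CO and at 2324, 1824 and 2872 CPM in OC. It fell by 1.22 on the log2 scale (SE 0.217, 95% interval -1.69 to -0.74, limma adjusted p = 0.0259), with an OC mean 2.31 times the CO mean. The CC mean of 1747 ± 99.8 CPM lay between them, and the OO mean of 1056 ± 236 CPM was close to that of CO (SD, n = 3 each).

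miR-183-5p, encoded beside miR-96, had 23.0, 41.7 and 12.9 CPM in CO and 66.2, 52.6 and 82.5 CPM in OC. Its log2 change of -1.47 (SE 0.349) was larger than that of miR-182-5p in these libraries but less precise, and it missed the threshold (limma adjusted p = 0.10). It passed with library quality weights (-1.36, limma adjusted p = 0.0359) and without CO replicate 2 (-1.88, limma adjusted p = 0.00790), while without CO replicate 3 the change was -1.07 (limma adjusted p = 0.206). miR-96-5p stood near the detection limit, at 2.06, 2.41 and 0.551 CPM in CO, the last resting on 3 reads, and at 3.65, 3.37 and 7.68 CPM in OC. This gave a log2 change of -1.15 with an SE of 0.322 (limma adjusted p = 0.178). Each member alone separated the groups, and none of the 3 was as high in any CO library as in the lowest OC library.

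The call of miR-182-5p rested on few libraries. It was lost without CO replicate 1 (limma adjusted p = 0.160), CO replicate 3 (0.123), OC replicate 1 (0.114), OC replicate 3 (0.132) or CC replicate 2 (0.0544), and when CO and OC were fitted without the other groups (0.280). With log2 depth in the model its change was -1.001 (limma adjusted p = 0.180) and that of miR-183-5p -0.98 (0.562).

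**Figure D2:**
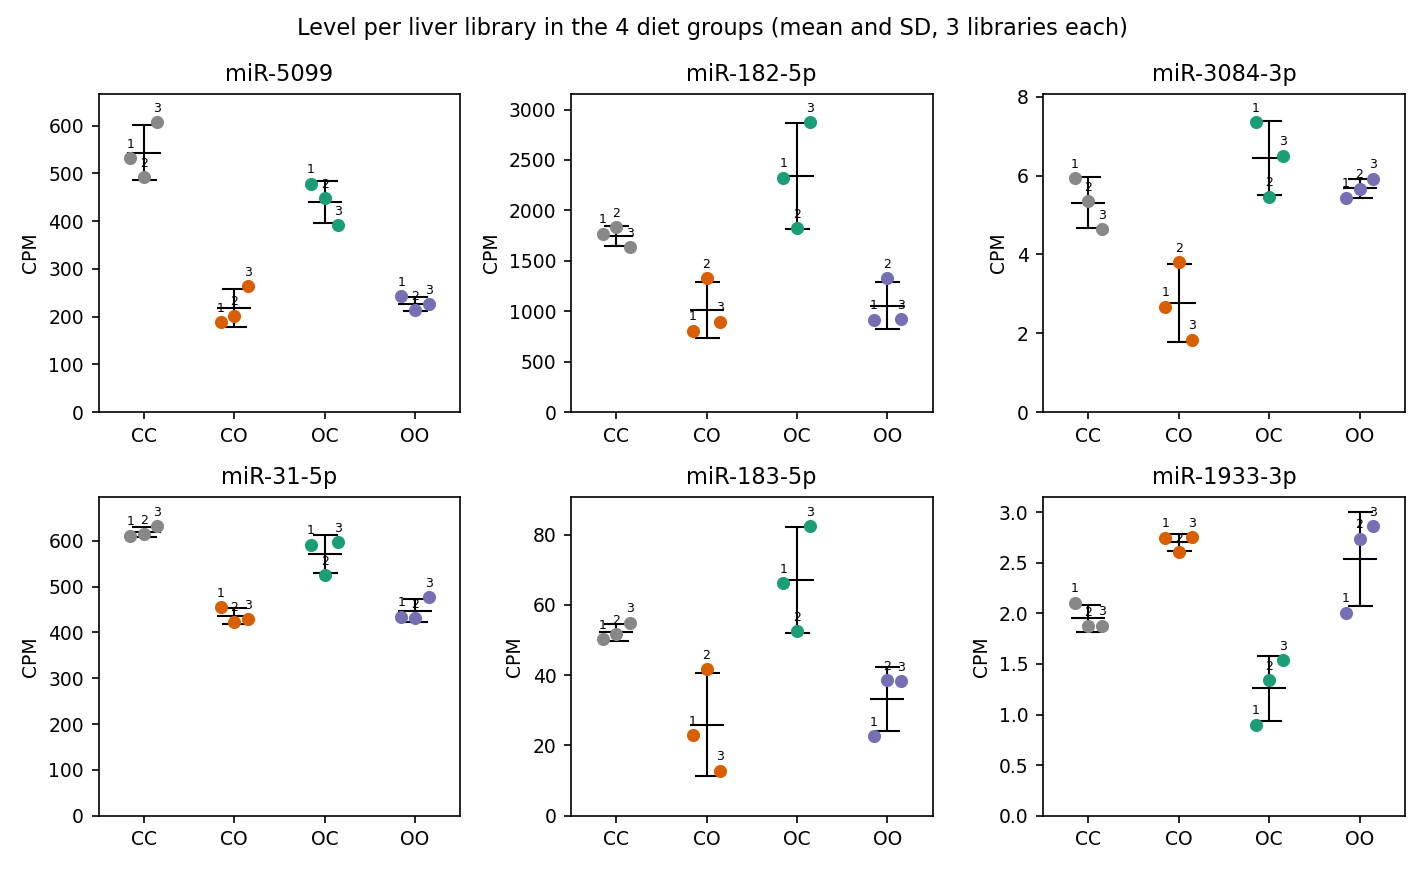
CPM (vertical axes, from 0) of 6 miRNAs in each liver library, by diet group (horizontal axes: CC, CO, OC, OO; numbers are replicates), with bars for the mean and SD of 3 libraries. CO lies below OC with no overlap in 5 panels and above it for miR-1933-3p. For miR-5099, miR-182-5p, miR-31-5p and miR-183-5p the OO libraries sit with CO, while for miR-3084-3p CO is below all 9 other libraries.

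miR-3084-3p was a scarce miRNA that was low in CO alone. It reached 2.67, 3.81 and 1.84 CPM in CO, against 7.35, 5.47 and 6.50 CPM in OC, and the reads behind the values ran from 10 in CO replicate 3 to 163 in OC replicate 1. CC (5.31 ± 0.649 CPM) and OO (5.67 ± 0.242 CPM) lay near OC, and all 3 CO libraries were below the other 9. Its log2 change was -1.005 (SE 0.195, 95% interval -1.43 to -0.58, limma adjusted p = 0.0357), which understates the change in CPM at this level, where the OC mean was 2.32 times the CO mean. With a pseudocount of 5 the change was -0.56 and still passed, and with log2 depth in the model it was -0.75 (limma adjusted p = 0.215).

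The call passed in 9 of the 21 alternative fits that tested it. It was lost when CO and OC were fitted without the other groups (limma adjusted p = 0.389) and without any 1 of 10 libraries. These were CO replicate 1 (0.160), CO replicate 3 (0.123, with a change of -0.82), OC replicate 1 (0.177), OC replicate 3 (0.132), and each of the CC (0.0574, 0.0709 and 0.0560) and OO (0.0579, 0.0716 and 0.0639) libraries in order of number. It held without CO replicate 2 (0.00790) or OC replicate 2 (0.0445).

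**Figure D3:**
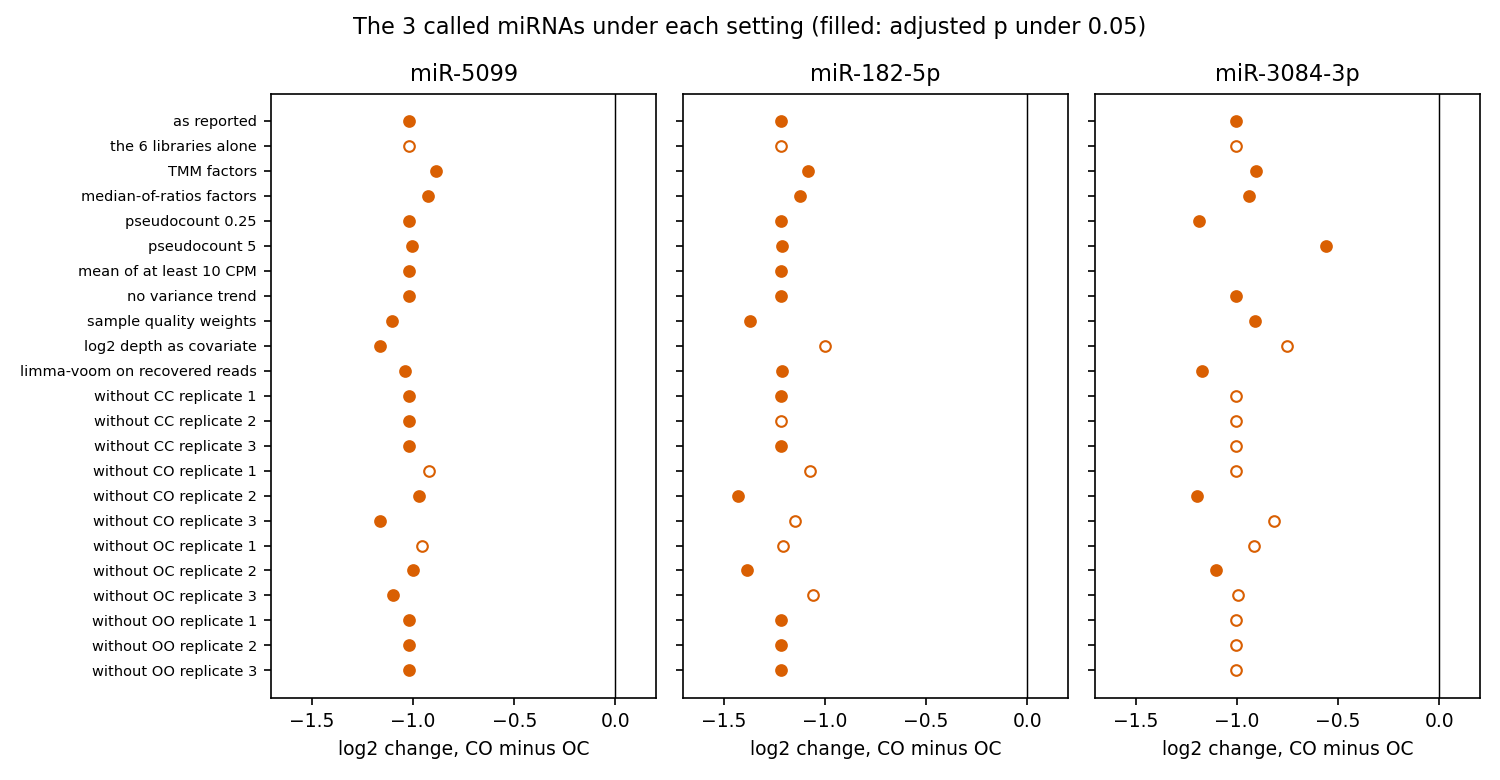
Log2 change between CO and OC (horizontal axes) of the 3 called miRNAs under each setting of the analysis (vertical axis), with filled circles where the limma adjusted p was under 0.05. miR-5099 passed in 19 of 22 alternatives, miR-182-5p in 15 of 22 and miR-3084-3p in 9 of 21, and all changes stayed below 0.

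Among miRNAs at higher levels in CO, miR-1933-3p was nearest to the threshold. It had 2.75, 2.61 and 2.75 CPM in CO and 0.901, 1.34 and 1.54 CPM in OC, with no overlap, and rested on 15 to 39 reads in these 6 libraries. This gave a log2 change of 0.72 with an SE of 0.160 (limma adjusted p = 0.0773). It passed with TMM factors (0.82, limma adjusted p = 0.0389), with median-of-ratios factors (0.79, 0.0374) and without the mean-variance trend (0.72, 0.0299). CC, at 1.95 ± 0.132 CPM, lay between OC and CO, and OO was at 2.54 ± 0.463 CPM.

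The abundant miR-378a-3p, made from an intron of Ppargc1b and linked to fatty acid oxidation, showed a small difference with little scatter. Its levels were 15700, 15640 and 14530 CPM in CO and 12410, 12040 and 12930 CPM in OC, without overlap. The change of 0.30 on the log2 scale had an SE of 0.103 (limma adjusted p = 0.373), and in all 12 libraries obesogenic-fed sons were above control-fed sons. Its other arm, miR-378a-5p, was at 76.6 ± 15.2 CPM in CO and 76.9 ± 15.1 CPM in OC (SD, n = 3 each). Of the 5 listed rows of the miR-378 family, 4 were higher in CO at the deposited scaling and all 5 with either other scaling, with a median of 0.06 at the first.

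4 more miRNAs with higher values in CO were among the 25 smallest p-values. miR-7a-5p, best known from pancreatic islets and neuroendocrine cells, had 19.5, 17.0 and 35.2 CPM in CO and 16.5, 13.8 and 12.0 CPM in OC. Its log2 change of 0.66 (limma adjusted p = 0.373) was 0.36 without CO replicate 3, the highest library. miR-185-5p, a regulator of cholesterol uptake genes, had a change of 0.59 (limma adjusted p = 0.373), miR-222-5p 0.66 (0.382) and miR-134-5p, from the imprinted Dlk1-Dio3 region, 0.65 (0.391). In miR-134-5p alone of the 386 rows, every CO library was above all other 9, at 2.06, 3.94 and 2.39 CPM.

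Of the 25 miRNAs with the smallest p-values, 19 were lower and 6 higher in CO, and 21 did not overlap. Ranking by p in the same libraries favours rows without overlap. Among all 386 rows, 65.8% were lower and 18.1% did not overlap. miR-137-3p, best known from neurons, was scarce: it had 4.12, 4.68 and 2.02 CPM in CO and 8.43, 7.68 and 7.98 CPM in OC (log2 change -1.02, limma adjusted p = 0.10). miR-31-5p, whose libraries scattered little within a group, differed by a small amount. Its levels were 455, 423 and 429 CPM in CO and 592, 524 and 597 CPM in OC, a log2 change of -0.39 (SE 0.0979, limma adjusted p = 0.116) that passed with library quality weights (-0.38, limma adjusted p = 0.0359). With TMM factors it was -0.25 (limma adjusted p = 0.368).

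The seed pair miR-26a-5p and miR-26b-5p, made from introns or exons of the Ctdsp phosphatase genes, differed by nearly the same amount. miR-26a-5p averaged 26330 ± 3538 CPM in CO and 32610 ± 3803 CPM in OC (SD, n = 3 each, log2 change -0.31, limma adjusted p = 0.382). miR-26b-5p averaged 5749 ± 919 and 7250 ± 983 CPM, a change of -0.34 (limma adjusted p = 0.382), and its groups overlapped. Without CO replicate 3 the changes were -0.20 and -0.24.

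miR-150-5p, abundant in mature lymphocytes, had 148, 215 and 147 CPM in CO and 724, 220 and 404 CPM in OC. The groups were separate only by the small gap between CO replicate 2 and OC replicate 2, and the log2 change of -1.26 (SE 0.342, limma adjusted p = 0.165) ranged from -1.69 without OC replicate 2, where it passed (limma adjusted p = 0.0187), to -0.83 without OC replicate 1. It was among 16 miRNAs of the 386 whose 3 CO libraries lay below all other 9 libraries, and among 5 such in the 25, with miR-3084-3p, miR-542-5p, let-7c-1-3p and miR-126-5p. miR-1247-5p (-0.88), miR-184-3p (-0.79), miR-511-3p (-0.61), miR-337-5p (-0.61), miR-326-3p (-0.57) and miR-99b-3p (-0.50) made up the rest of the lower miRNAs, with limma adjusted p from 0.229 to 0.391. Without CO replicate 3 the changes of miR-326-3p and miR-511-3p were -0.38 and -0.40, and without CO replicate 1 that of miR-184-3p was -0.50. miR-326-3p, from an intron of Arrb1, was the one of these that was highest in OO (49.2 ± 3.81 CPM, SD, n = 3), above CC at 31.5 ± 0.837 CPM.

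The levels in CC and OO place the 3 called miRNAs differently. Against CC, whose libraries both differences share, miR-5099 differed by -1.32 in CO and -0.31 in OC (SE 0.147 each). miR-182-5p differed by -0.82 in CO and 0.40 in OC (SE 0.217), and miR-3084-3p by -0.77 in CO and 0.23 in OC (SE 0.195). For miR-5099 the CO and OC means were thus both below CC, while for the others CO lay below CC and OC above it. The differences of OC from CC were not tested, and that of miR-3084-3p was near its SE.

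The comparison of OO with CC uses none of the CO or OC libraries, although it shares the spread estimate. There miR-5099 differed by -1.25, miR-182-5p by -0.75 and miR-3084-3p by 0.09. Of the 25 miRNAs with the smallest p-values, 17 (68.0%) had the same sign in OO minus CC as in CO minus OC, against 195 of all 386 (50.5%). The 19 lower ones had the same sign in 14 cases (73.7%), against 45.3% of all rows lower in CO, and the 6 higher ones in 3 (50.0%), against 60.6% of all rows higher in CO. In 6 of the 25 the sons' diet separated all 12 libraries (miR-5099, miR-182-5p, miR-183-5p, miR-31-5p, miR-184-3p and miR-378a-3p), as it did in 10 of the 386. The CO mean was the lowest of the 4 group means in 18 of the 25 (72.0%) and in 174 of the 386 (45.1%). The choice of rows lower in CO than in OC fixes part of this: of all 254 rows lower in CO, 173 (68.1%) had the lowest mean there.

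Among miRNAs studied in cholesterol and fatty acid metabolism, 19 were listed, with 1 called (miR-182-5p, lower). In all, 12 were lower and 7 higher, with a median log2 change of -0.09 against -0.10 over all rows. An unadjusted limma p under 0.05 was reached by 7 of the 19, against 12.4% of all rows. With either other scaling 9 of the 19 were lower, and without OC replicate 1 the median was 0.02. Those 7 were the 3 cluster members, miR-26a-5p and miR-30c-5p on the lower side, and miR-378a-3p and miR-185-5p on the higher. The separation of miR-182-5p by the sons' diet was known when this list was chosen. miR-33-5p, the Srebf2 intronic repressor of the cholesterol exporter Abca1, had 11.7, 12.9 and 7.34 CPM in CO and 13.8, 16.9 and 12.2 CPM in OC (log2 change -0.42, limma adjusted p = 0.454). Its partner arm miR-33-3p had a log2 difference of -0.62 (0.448), and both sets of libraries overlapped. Without CO replicate 3 the values were -0.20 for miR-33-5p and -0.16 for miR-33-3p. miR-27b-3p, a regulator of lipid genes, was at 26390 ± 2004 CPM in CO and 25140 ± 785 CPM in OC (SD, n = 3 each).

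Of 18 miRNAs studied in insulin signalling and glucose metabolism, none was called, 8 were lower and 10 higher, and the median was 0.09. 3 had an unadjusted limma p under 0.05, against 12.4% of all rows: miR-7a-5p (0.66), miR-26a-5p (-0.31) and miR-338-3p (-0.45, or -0.22 without CO replicate 3). The median of this list was -0.08 when CO replicate 2 was left out and -0.03 when OC replicate 2 was. Of 14 miRNAs linked to inflammation and steatohepatitis, none was called, 8 were lower and 6 higher, with a median of -0.03, and miR-155-5p (-0.67, or -0.29 without OC replicate 1) and miR-31-5p had an unadjusted p under 0.05. Without CO replicate 1 the median was 0.09. With TMM factors 4 of these 14 were lower, and with median-of-ratios factors 5.

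**Figure D4:**
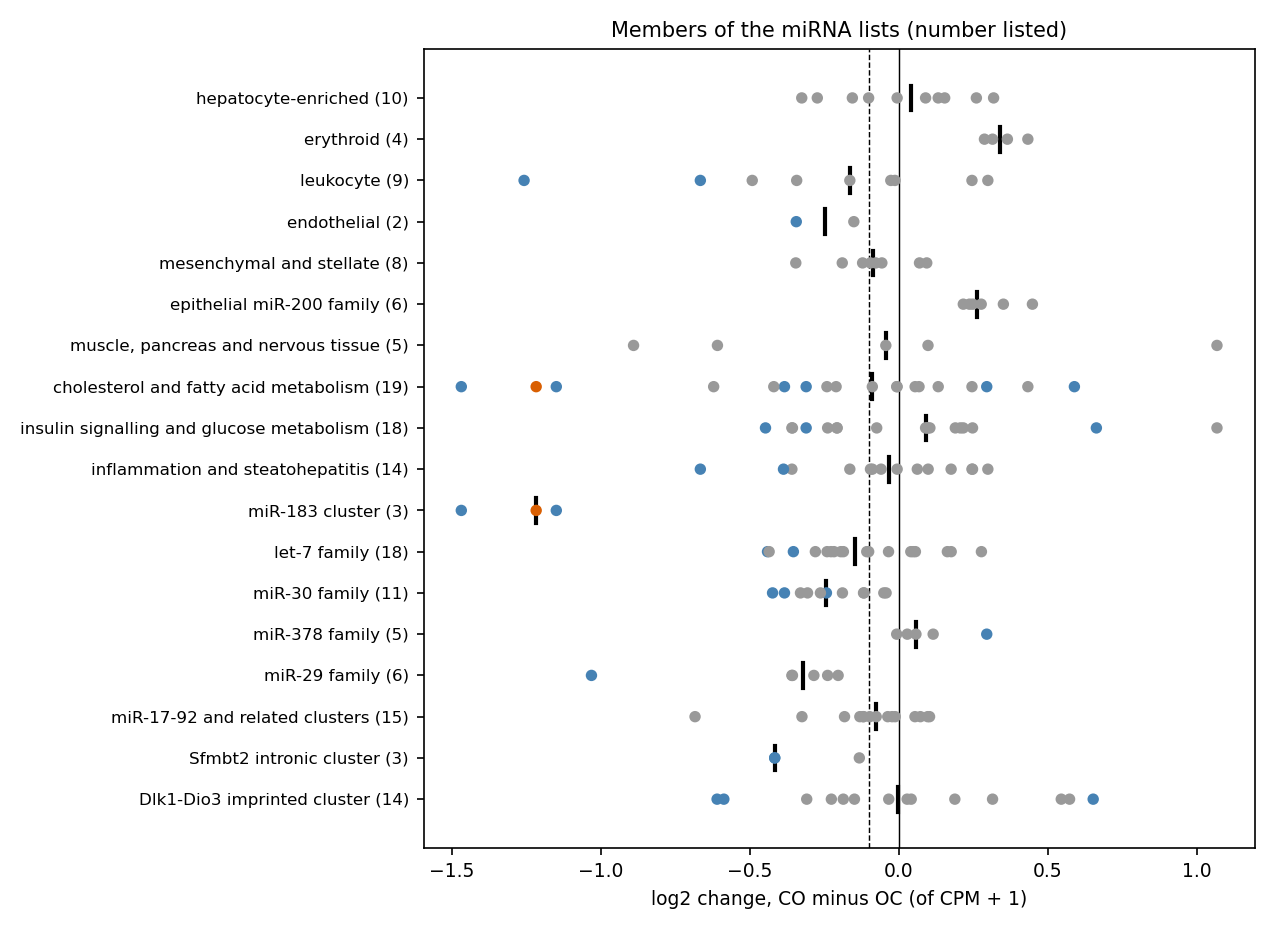
Log2 change between CO and OC (horizontal axis) of every member of 18 miRNA lists (vertical axis, number of members in brackets). The lists leave out the 4 rows that name several miRNAs. Points are orange for a limma adjusted p under 0.05, blue for an unadjusted p under 0.05 and grey otherwise, short bars are list medians, and the dashed line is the median of all rows at -0.10. The miR-183 cluster lies farthest left, with its 3 members between -1.47 and -1.15.

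Among marker miRNAs of the cell types that liver tissue can hold, none was called. In bulk tissue, fewer cells of a type and less of its RNA per cell cannot be told apart. The summed share of 10 hepatocyte-enriched miRNAs was 38.0 ± 2.14% in CO and 34.6 ± 1.04% in OC without overlap (SD, n = 3 each). The exact permutation p was 0.1, and 0.30 after adjustment over 9 quantities. The difference of 3.35 percentage points was 2.13 without CO replicate 3, the highest library at 40.4%. Most of the 3.35 points lay in miR-192-5p, at a mean share of 26.1% in CO and 23.4% in OC. The members split evenly, with 5 lower and 5 higher and a median log2 change of 0.04, and 3 were lower with TMM and 4 with median-of-ratios factors.

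The endothelial pair made from an Egfl7 intron held 1.97 ± 0.379% in CO and 2.41 ± 0.0530% in OC, again without overlap (exact permutation p = 0.1, adjusted p = 0.30). That difference of -0.44 percentage points was -0.23 without CO replicate 3. miR-126-5p had 16970, 18760 and 12320 CPM in CO and 20070, 19810 and 20190 CPM in OC (log2 change -0.34, limma adjusted p = 0.391). Without CO replicate 3 this change was -0.17. Its partner miR-126-3p had a log2 difference of -0.15, with overlapping groups, and -0.03 without that library.

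The leukocyte share was 0.238% to 0.308% in CO and 0.30% to 0.464% in OC (exact permutation p = 0.2, adjusted p = 0.45), with 7 of 9 members lower and a median log2 change of -0.16. Without OC replicate 1 the median was -0.0031 and the difference in share -0.0302 percentage points, from -0.0818, and without CO replicate 1 or CO replicate 3 the median was -0.03 or -0.06. Next to miR-150-5p, miR-142-5p, made across blood cell lineages, had a log2 difference of -0.34, which was -0.17 without OC replicate 1 and -0.15 without CO replicate 3. OC replicate 1 held the highest leukocyte share and the highest miR-150-5p, and the part of leukocytes in the change of miR-150-5p was not tested. With TMM or median-of-ratios factors 5 of the 9 were lower.

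All 4 erythroid rows of the list were higher in CO, with a median of 0.34, but none had an unadjusted p under 0.05. This rested on CO replicate 1: miR-451a had 2563, 1446 and 826 CPM in CO and 924, 1427 and 1088 CPM in OC, and miR-144-3p 481, 257 and 164 CPM against 148, 308 and 180 CPM. Without CO replicate 1 the erythroid median was -0.00. The joint row of miR-486-5p and miR-3107-5p, at a mean of 2736 CPM, was left out of this list and its share. That row was higher in CO too (0.61, limma adjusted p = 0.448). The shares of the mesenchymal and stellate list (3.88 ± 0.529% and 3.63 ± 0.184%) overlapped (SD, n = 3 each), with an exact permutation p of 0.6 (0.70 adjusted). They left out the joint row of miR-199a-3p and miR-199b-3p, at a mean of 1140 CPM (log2 change -0.08).

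Epithelial miR-200 family members were all 6 higher in CO, with a median of 0.26, and none had an unadjusted p under 0.05. Their summed share was 0.0562%, 0.0864% and 0.0480% in CO and 0.0888%, 0.0395% and 0.0394% in OC, so 1 library of each group stood above the others. The same 2 libraries, CO replicate 2 and OC replicate 1, had the highest miR-375-3p, a pancreatic islet and gut miRNA, at 1061 and 1734 CPM. The remaining 4 had 35.8 and 266 CPM in CO and 21.9 and 27.5 CPM in OC. In CO, miR-182-5p and miR-183-5p were also highest in replicate 2, while in OC both were highest in replicate 3, where miR-375-3p was at 27.5 CPM. The part of these markers in the results was not tested. Without CO replicate 2 the median of the miR-200 family was 0.05. The muscle miRNA miR-133a-3p also varied within both groups, from 84.4 to 352 CPM in CO and from 54.3 to 440 CPM in OC.

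All 11 miR-30 family rows were lower in CO, with a median of -0.24, 7 not overlapping and none called. Over all 386 rows, 65.8% were lower, 18.1% did not overlap and 12.4% had an unadjusted limma p under 0.05. miR-30c-1-3p (-0.42), miR-30c-5p (-0.38, or -0.15 without CO replicate 3) and miR-30a-3p (-0.24) had an unadjusted limma p under 0.05. With TMM factors 7 of the 11 were lower and the median was -0.11, and with median-of-ratios factors 9 were lower with a median of -0.15. Without CO replicate 3 the median was -0.15.

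The 6 miR-29 family rows, known as repressors of collagen genes, were lower under all 3 scalings, with medians of -0.32, -0.19 (TMM) and -0.23 (median-of-ratios), and of -0.13 without CO replicate 3 at the deposited scaling. miR-29a-5p had the largest change, -1.03 (limma adjusted p = 0.391). Its CO replicate 3 was at 0.918 CPM while the other 2 CO libraries had 6.41 and 6.68 CPM, and without that library the change was -0.37. The abundant arm miR-29a-3p, at 4118, 4313 and 2366 CPM in CO and 4801, 4167 and 4431 CPM in OC, overlapped.

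In the let-7 family 12 of 18 rows were lower and 6 higher, with a median of -0.15, and let-7c-1-3p (-0.44) and let-7b-3p (-0.35, or -0.23 without OC replicate 3) had an unadjusted limma p under 0.05. With TMM factors 9 were lower and with median-of-ratios factors 11, and without OC replicate 1 the median was -0.01. A joint row of let-7a-1-3p and let-7c-2-3p, not counted, was at -0.20. Of all rows, 12.4% had an unadjusted limma p under 0.05. The 15 rows of the miR-17-92 and related clusters had a median of -0.08 and none under that p, and 11 were lower at the deposited scaling, 3 with TMM and 7 with median-of-ratios factors. Of 14 rows from the Dlk1-Dio3 imprinted region 7 were lower and 7 higher, with miR-337-5p (-0.61), miR-434-3p (-0.59, or -0.32 without CO replicate 3) and miR-134-5p (0.65) under it. The 3 rows counted for the Sfmbt2 intronic cluster were lower, with a median of -0.42, at mean levels of 1.91 to 2.41 CPM. They include miR-467b-5p and miR-467a-5p, which carry identical values in every library and count as 1 measurement. The median is the value these share, and miR-467d-5p was at -0.13. A joint row of miR-669a-5p and miR-669p-5p, from the same cluster but not counted, was at 0.03 (limma adjusted p = 0.964).

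None of the most abundant miRNAs passed the test. miR-192-5p held 25.3%, 23.7% and 29.2% of the summed values in CO and 22.1%, 23.8% and 24.2% in OC (log2 change 0.15, limma adjusted p = 0.439). miR-22-3p held 17.1%, 17.0% and 12.1% in CO and 18.0%, 17.8% and 19.0% in OC (-0.26, 0.399). CO replicate 3 was the highest library for the first and the lowest for the second, and without it the changes were 0.07 and -0.10. Changes were 0.13 for miR-148a-3p, 0.25 for miR-21a-5p and -0.12 for miR-30a-5p, each with a limma adjusted p of 0.528. miR-122-5p, a member of the hepatocyte-enriched list, was at 24090 ± 4198 CPM in CO and 23990 ± 1692 CPM in OC (SD, n = 3 each).

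Both arms of a hairpin can be kept as mature miRNAs, and 99 hairpins had both listed. In 56 both arms were lower in CO, in 19 both were higher, and in 24 they had opposite signs. The log2 ratio of the 5p to the 3p arm did not overlap between CO and OC in 15 hairpins. The widest such gap was in miR-542, at -3.42, -2.75 and -3.70 in CO and -1.80, -2.16 and -2.20 in OC. There miR-542-5p had a log2 difference of -0.64 (limma adjusted p = 0.181) and miR-542-3p one of 0.17 (0.685), and the 5p arm rested on 4 to 25 reads in CO. For miR-99b the ratio was higher in CO (6.30 ± 0.131 against 5.99 ± 0.0948, SD, n = 3 each), with miR-99b-5p at -0.24 and miR-99b-3p at -0.50. For miR-511, made from an intron of the macrophage receptor gene Mrc1, it was -0.10 ± 0.388 and -0.53 ± 0.0902, with miR-511-5p at -0.20 and miR-511-3p at -0.61. No test was made on these ratios.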

How the data were processed

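Small RNA libraries came from total liver RNA (TruSeq small RNA kit, per the labels' protocols). The submitters' processing notes list Bowtie 1.2.3, with build, miRNA reference and treatment of multiply matching reads not given in the sources used here. CPM values were deposited by the authors for 386 mature miRNA rows and 12 libraries, with no value at 0. Within each library all values were whole multiples of 1 step (tolerance 0.001 reads), and that step gave the depth, 5.45 to 22.2 M (mega) reads. The main test used CPM, and limma-voom on reads computed from that step was an alternative.

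The test was limma 3.58.1 (R 4.3.3) on log2(CPM + 1), with trended variances, a mean for each of the 4 groups, the contrast CO minus OC, and Benjamini-Hochberg adjustment over 386 rows. The fit was tested on simulated data for this comparison (386 rows, 40 changed by 1 log2 unit). With changed rows drawn from all levels it called 35 of them and 43 unchanged rows. With changed rows drawn only from those under 5000 CPM, a limit set after that outcome, it called 37 and 0. That run held no change in more abundant miRNAs, so it does not cover them. Both runs gave all rows the same dispersion and held no outlying library such as CO replicate 3. Shares and depth were compared with exact two-sided permutation tests in Python 3.11.15 (scipy 1.17.1). Replicate numbers follow accession order and pair nothing.

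The comparison, its members and the lists were chosen with earlier results of these data known. The lists and their shares left out the 4 rows that name several miRNAs. The naming rule took called miRNAs, the 25 smallest p-values, the 3 highest-level members per list, the 5 highest-level miRNAs of all, miR-5099, miR-31-5p, miR-182-5p and miR-326-3p, and other arms. It gave 90 miRNAs; 59 are described, 7 of them outside the rule (miR-338-3p, miR-155-5p, let-7b-3p, miR-30c-1-3p, miR-3061-3p, miR-33-5p and miR-33-3p). Which of the 90 to describe, beyond the 25, and those 7, were chosen after their values were seen.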

Additional observations from a re-analysis of the deposited data

How the results depend on the processing

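The changes of miR-5099, miR-182-5p and miR-3084-3p stayed below 0 in every alternative run, but the number of calls moved from 3. It was 0 with the 6 libraries of CO and OC alone (23 at an unadjusted limma p under 0.05), where fewer libraries estimate the spread, and 5 with library quality weights, all lower. With TMM factors, median-of-ratios factors or no variance trend it was 4, of which 1 was higher. Leaving out 1 library in turn gave 0 to 4 calls, all lower: 0 without CO replicate 1 or OC replicate 1 (45 and 24 at an unadjusted p under 0.05), and 1, miR-5099, without CC replicate 2, CO replicate 3 or OC replicate 3. With log2 depth as a covariate the 2 calls were miR-5099 and miR-3061-3p (-1.27, limma adjusted p = 0.0334, chosen after its values were seen). Only rows of at least 10 CPM gave 2.

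Of 1282 alternative fits of 59 miRNAs, 21 changed sign, none of them called, and the cause was not tested. Signs turned for miR-30a-5p with TMM (0.0174), for miR-126-3p (0.0288) and miR-31-3p (0.0661) with log2 depth, for miR-122-5p with TMM (0.13) and median-of-ratios (0.0872), and for miR-378a-5p with these (0.13 and 0.0844), weights (0.12), depth (0.13) and limma-voom (0.0028). Without 1 library, changes ran from -0.51 to 0.0218 for miR-31-3p, -0.045 to 0.77 for miR-451a, -0.0721 to 3.10 for miR-375-3p, -0.0188 to 0.16 for miR-143-3p, -0.14 to 0.0888 for miR-122-5p and -0.15 to 0.16 for miR-378a-5p. Differences in share ran from -0.00223 to 0.109 percentage points (erythroid), -0.0538 to 0.421 (mesenchymal), -0.00376 to 0.0241 (miR-200 family), -0.0679 to 0.0354 (muscle, pancreas and nervous tissue) and -0.290 to 1.02 (let-7).

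The deposited values are CPM. Of the count models, only limma-voom was run on the reads computed from them, and the planned edgeR and DESeq2 alternatives were not run. No paired analysis was possible because the labels name no mothers or litters and give no pairing. For 125 rows with a mean under 10 CPM, few reads limit precision.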
